A study of Gallus gallus with 6 samples.

Results

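The genes described here encode the proteins of the cytosolic ribosome, the particle that translates mRNA, and were examined in whole embryos of the chicken (Gallus gallus) collected at stage 10 of Hamburger and Hamilton. Membership was set by symbol alone, as protein-coding genes whose chicken RefSeq symbol is RPL or RPS followed by a number, with at most 1 of the letters A, X or L and a further number after it, or is RPLP0, RPLP1, RPLP2 or RPSA. The family itself was picked with earlier results of these data known. S6 kinases and mitochondrial ribosomal proteins were left out. The rule found 70 of the 24098 gene rows, 44 for the large subunit and 26 for the small subunit. The study measured RNA in 3 libraries of embryos treated with zinc oxide nanoparticles (ZnO 1, ZnO 2 and ZnO 3) and in 3 libraries of control embryos (control 1, control 2 and control 3). All embryos carry the same stage label, whose window of hours starts at 34 and ends at 42, 43 and 44 hours for ZnO 1, ZnO 2 and ZnO 3 and at 39, 40 and 41 hours for control 1, control 2 and control 3. The 6 ends form an unbroken run of hours, 1 per sample, so they may have been filled in as a series and not measured; taken as stated, they and the treatment cannot be told apart. The labels give no strain, dose, route or length of exposure, do not say what the controls received, and do not say whether a library is 1 embryo or a pool, so the p-values measure the spread between libraries, which may be technical in part.

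A ribosome is built in the nucleolus, a nuclear body where ribosomal RNA is made and joined to imported ribosomal proteins, and each of its subunits holds a single copy of most of its proteins. In vertebrates the mRNAs of these proteins are abundant and short and start with a run of pyrimidines, through which the growth kinase mTOR controls their translation as a group. In human and mouse, mutations in ribosomal protein genes or in the machinery that makes ribosomal RNA cause tissue-selective disorders of blood and of the head skeleton, a derivative of the cranial neural crest that the title of the series names.

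The deposited values are FPKM, reads per kilobase of gene model scaled to the depth of the library, so levels can be compared between genes. Depth, recovered from the steps of these values, was 18208501 to 19843561 reads per library. ZnO 1 stood apart from the other 5 libraries in the level of short genes, so the main fold changes are given with and without it. A gene was tested if its mean over the libraries was at least 1 FPKM, and 67 of the 70 ribosomal protein genes were, 41 of the large and 26 of the small subunit. The other 3 are large subunit genes. RPL3L, a paralog of RPL3 found in heart and skeletal muscle of mammals, had 8 to 22 reads per library and 0.341 to 0.934 FPKM. RPL14 was listed at 0 in all 6. It encodes a core protein of the ribosome, so this says only that the counting gave the row no reads. Reads that close copies share could have been divided or dropped by the counting, which touches every gene of this family.

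Ribosomal protein mRNAs were among the most abundant of the embryo. Of the 100 genes with the highest mean FPKM, 58 were tested ribosomal protein genes. The median of their mean levels was 1250 FPKM (quartiles 948 and 1786), 1178 FPKM for the large and 1723 FPKM for the small subunit, against 11.0 FPKM over all genes tested. Each tested member had from 128 to 44033 reads in a library, and RPS27L, with the fewest, is the gene whose values carry the most counting error. Of the 67 genes, 65 lay between 315 and 3032 FPKM in every library, and RPL7L1 and RPS27L were the exceptions.

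**Figure D1:**
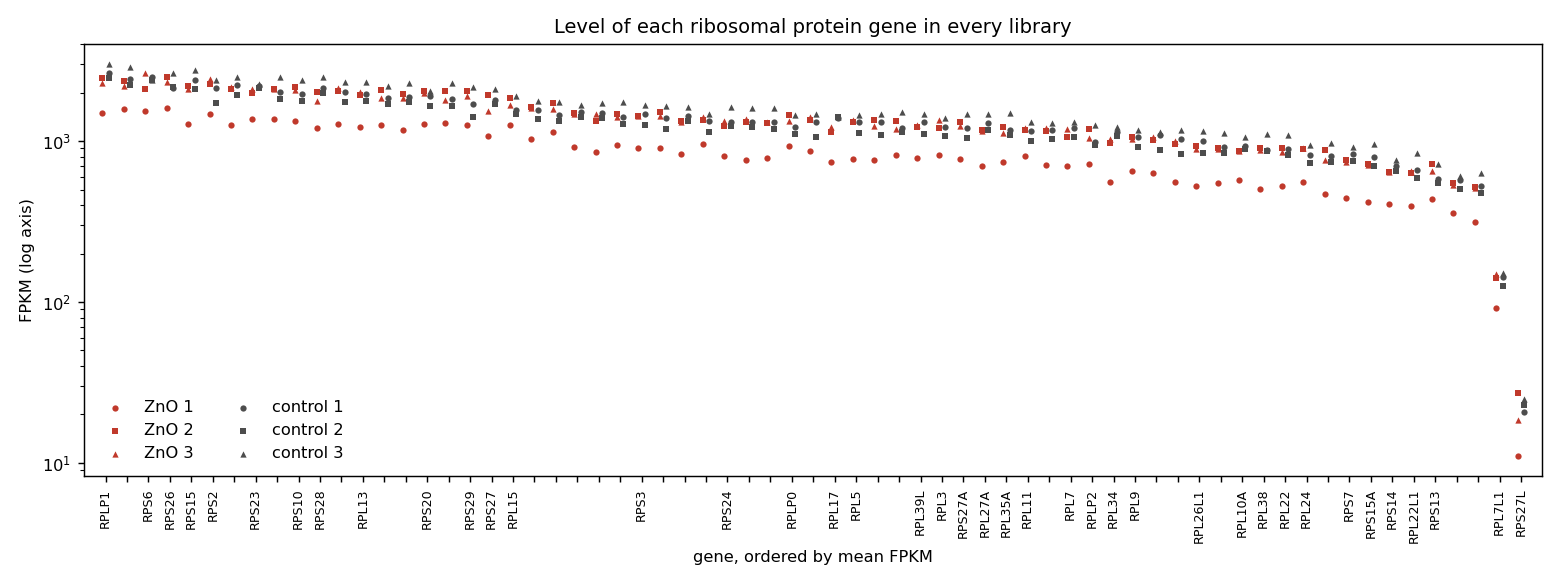
FPKM on a log axis of each of the 67 tested ribosomal protein genes, ordered by mean level, in the 3 ZnO libraries (red, left of each pair) and the 3 control libraries (grey, right), with circle, square and triangle for library 1, 2 and 3. The red circles of ZnO 1 are the lowest point of every gene, and RPL7L1 and RPS27L lie far below the rest. Only genes named in the text are labelled.

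The levels at both ends of that range show the breadth of the family. RPLP1 (gene ID 396262), which with RPLP0 and RPLP2 forms the acidic stalk that recruits translation factors, was the most abundant, at 1505, 2469 and 2309 FPKM in ZnO 1, ZnO 2 and ZnO 3, against 2640, 2466 and 3032 FPKM in control 1, control 2 and control 3. Its groups overlapped narrowly, ZnO 2 lying just above control 2. RPS6 (gene ID 396148), the small subunit protein that S6 kinase phosphorylates, had 1544, 2117 and 2640 FPKM in ZnO libraries, against 2498, 2385 and 2415 FPKM in control libraries. Here the controls lay close together and the ZnO libraries lay on both sides of them. RPS26 and RPS15, also small subunit proteins, were among the 5 most abundant, with means over the libraries above 2100 FPKM.

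The paralogs showed how unequal copies of a ribosomal protein gene can be. RPS27L (gene ID 415372), a target of p53 in human cells, had 11.0, 27.1 and 18.6 FPKM in ZnO libraries, against 20.6, 22.8 and 25.1 FPKM in control libraries, and its parent RPS27 (gene ID 107055140) was 81.3 times as abundant. The lowest and the highest RPS27L values were both in ZnO libraries. RPL7L1 (gene ID 422676), whose yeast relative acts in assembly of the large subunit, had 91.7, 141 and 150 FPKM in ZnO libraries, against 144, 126 and 153 FPKM in control libraries. RPL7 was 8.09 times as abundant as RPL7L1, whereas RPL22 (762 ± 208 FPKM in ZnO and 938 ± 140 FPKM in control libraries, SD, n = 3 each) was only 1.35 times as abundant as its paralog RPL22L1 (559 ± 142 FPKM in ZnO and 699 ± 133 FPKM in control libraries). The rows named RPL26L1 and RPL39L were at the level of core ribosomal proteins, at 782 ± 224 FPKM in ZnO against 1002 ± 153 FPKM in control libraries and at 1090 ± 266 FPKM in ZnO against 1301 ± 191 FPKM in control libraries. The RefSeq table lists RPL26 and RPL39 as synonyms of these rows.

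Across the libraries, the ribosomal protein genes varied together, and ZnO 1 stood apart. All 67 tested genes had their lowest value in ZnO 1, where 30.8% of all genes tested did, and 63 of 67 had their highest in control 3, where 15.2% of all genes did. Relative to the 6-library mean of each gene, the median log2 level was -0.58, 0.10 and 0.09 in ZnO 1, ZnO 2 and ZnO 3, and 0.11, -0.05 and 0.32 in control 1, control 2 and control 3. ZnO 2, ZnO 3 and control 1 therefore lay close together, with control 2 below them and control 3 above. In bulk RNA, fewer cells of a type and less RNA per cell cannot be told apart. Over all genes tested the same medians lay between -0.02 and 0.04.

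**Figure D2:**
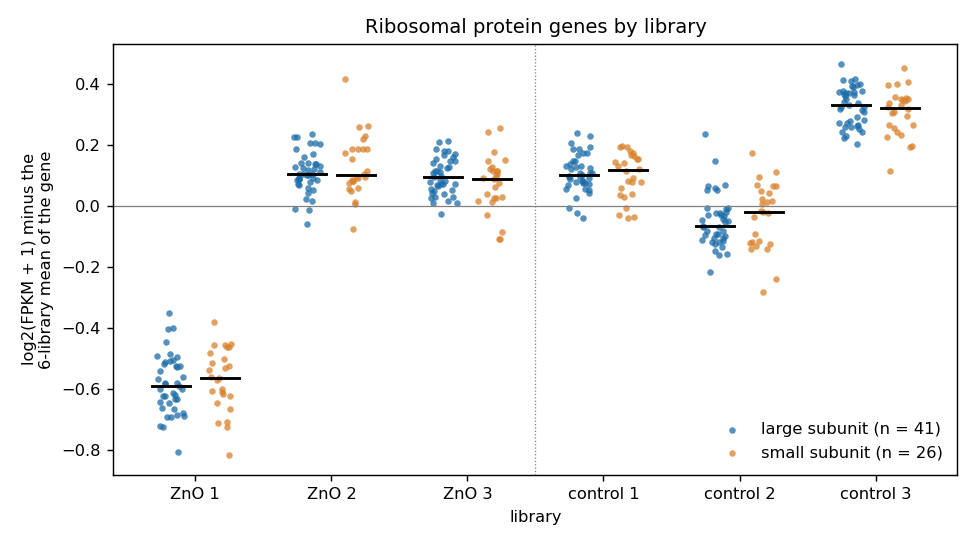
Deviation of log2(FPKM + 1) from the 6-library mean of the gene for 41 large (blue) and 26 small subunit genes (orange) in each library; black bars are medians. Every gene lies below 0 in ZnO 1 and above 0 in control 3, and both subunits have nearly the same median in each library.

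Large and small subunit genes kept step with each other. The summed FPKM of the large subunit genes was 1.21, 1.23 and 1.24 times that of the small subunit genes in ZnO 1, ZnO 2 and ZnO 3, and 1.23, 1.23 and 1.25 times in control 1, control 2 and control 3. Summed over both subunits, the 70 genes had 58138, 93119 and 91564 FPKM in ZnO libraries, against 92262, 83241 and 106978 FPKM in control libraries. That was 12.1%, 17.1% and 17.0% of all FPKM in ZnO libraries, against 17.2%, 15.7% and 19.1% in control libraries. By reads, they took 3.75%, 5.95% and 5.92% of ZnO libraries, against 5.91%, 5.31% and 6.81% of control libraries. The 95% Wilson intervals of these read shares reached at most 0.0111 percentage points to either side and cover counting error only. By each of these measures ZnO 1 was lowest and control 3 highest, and ZnO 2 and ZnO 3 lay within the range of the controls.

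The comparison of treated with control embryos found no ribosomal protein gene past the threshold, an adjusted p under 0.05 in limma over all 13311 genes tested, where 0 genes passed (0.0%). The lowest adjusted p of a member was 0.929, and 0 members had an unadjusted p under 0.05 in limma, against 754 of all genes, 2.61% lower and 3.06% higher in ZnO embryos. With limma-voom on recovered reads 0 members and 0 of all genes passed, 744 genes had an unadjusted p under 0.05, and all 67 members had a lower mean, as did 53.9% of all genes. All 67 genes had a lower mean in ZnO embryos, as did 56.1% of all genes tested in the same limma fit. Scaled to TPM, which sets the FPKM sum of every library equal, 61 of 67 were lower, against 45.8% of all genes, and 6 were higher, among them RPL15, RPLP0, RPS13, RPS2 and RPS29, and after quantile normalization 49 members were lower, against 52.3% of all genes. The median log2 fold change (of log2(FPKM + 1), ZnO minus control) was -0.26 in both subunits, with a range of -0.48 to -0.03, against -0.03 over all genes tested.

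Without ZnO 1, the lower means in ZnO embryos no longer held across the family. In that fit 39 of 67 genes were lower and 28 higher, where 51.3% of all genes were lower, and the median log2 fold change was -0.03 for the members and -0.01 for all genes. ZnO 1 was the lowest library of every member, so leaving it out raises each fold change by construction. Again 0 members passed, with a lowest adjusted p of 0.408 in limma, against 4 of all genes (0.0301%). ZnO 2 and ZnO 3 lay below all controls for 6 members, against 18.2% of all genes. Relative to the mean of the controls, the median member stood at 0.603, 0.981 and 0.965 times in ZnO 1, ZnO 2 and ZnO 3. Single controls stood as far apart as 0.881 times in control 2 and 1.14 times in control 3.

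**Figure D3:**
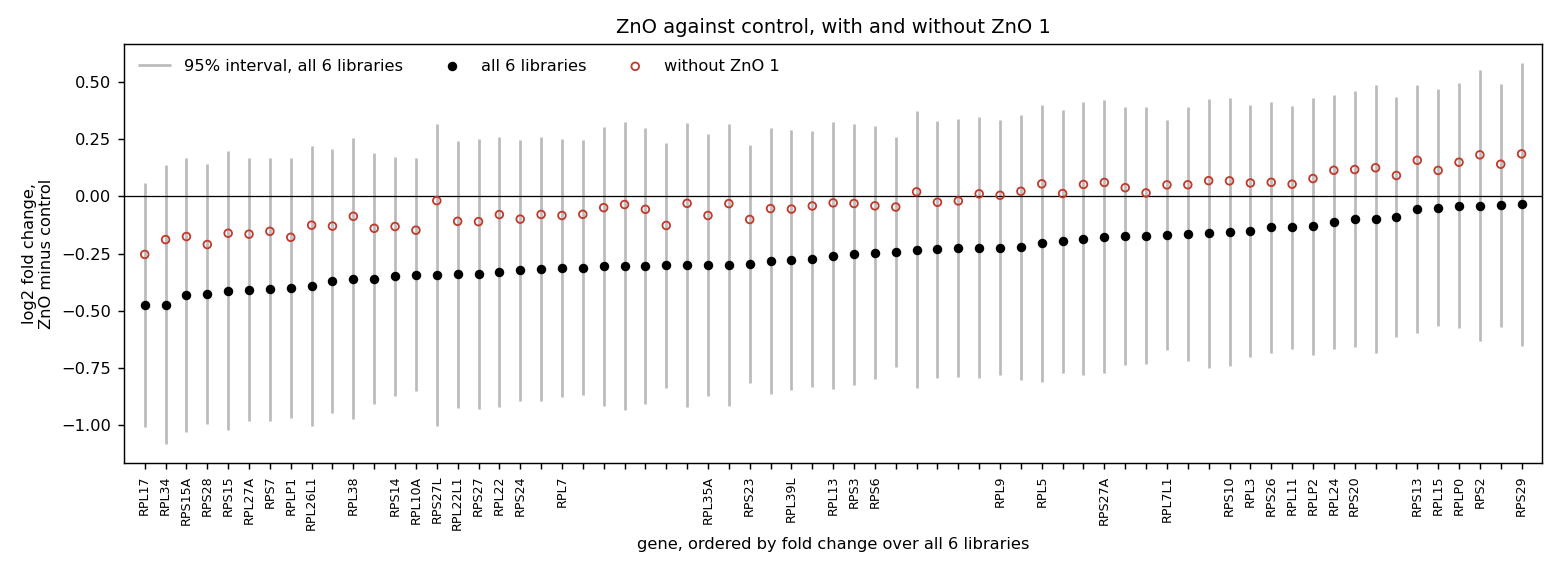
Log2 fold change of ZnO against control embryos for each of the 67 genes over all 6 libraries (black, with the 95% interval in grey) and without ZnO 1 (open red circles). The black points run from -0.48 for RPL17 to -0.03 for RPS29, and every interval includes 0; without ZnO 1 the points lie on both sides of 0. Only genes named in the text are labelled.

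All 3 ZnO libraries lay below all 3 controls for 6 of the 67 genes, against 5.89% of all genes tested, and 0 lay above them, against 5.6% of all genes. These were RPL17, RPL34, RPL27A and RPL10A of the large subunit and RPS23 and RPS14 of the small subunit, and RPL17 and RPL34 had the most negative fold changes of the family. RPL17 (gene ID 426845), which lines the tunnel through which the new protein leaves the ribosome, had 744, 1145 and 1218 FPKM in ZnO libraries, against 1399, 1405 and 1422 FPKM in control libraries. Its controls were almost equal, and ZnO 2 and ZnO 3 lay below them as ZnO 1 did. The log2 fold change of RPL17 was -0.48 ± 0.23 SE (95% interval -1.01 to 0.06, adjusted p = 0.929 in limma) and -0.25 without ZnO 1.

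RPL34 (gene ID 422526), a large subunit protein, had 554, 979 and 1026 FPKM in ZnO libraries, against 1142, 1072 and 1218 FPKM in control libraries. The gap between the groups was narrow, from ZnO 3 to control 2. Its log2 fold change was -0.47 ± 0.26 SE (interval -1.08 to 0.14, adjusted p = 0.943 in limma) and -0.19 without ZnO 1. RPS28 (gene ID 768930), which had the third smallest p of the members, stood at 1208, 2018 and 1785 FPKM in ZnO libraries, against 2145, 1979 and 2494 FPKM in control libraries, so its groups overlapped. RPS15A (618 ± 171 FPKM in ZnO and 816 ± 128 FPKM in control libraries, SD, n = 3 each) and RPS15 (1862 ± 511 FPKM in ZnO and 2424 ± 326 FPKM in control libraries) were also among the members with the most negative log2 fold changes, at -0.43 and -0.41.

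At the other end, RPS29, RPS2, RPLP0 and RPL15 were among the 5 genes with fold changes closest to 0. RPS2 (gene ID 416544), a protein of the mRNA entry side of the small subunit, had 1477, 2265 and 2430 FPKM in ZnO libraries, against 2149, 1725 and 2383 FPKM in control libraries. RPLP0 (gene ID 395835), the base of the stalk, had 937, 1448 and 1340 FPKM in ZnO libraries, against 1231, 1108 and 1452 FPKM in control libraries. In both, ZnO 1 was lowest, and ZnO 2 and ZnO 3 overlapped the upper controls. The log2 fold changes over all libraries were -0.04 for RPS2 (interval -0.63 to 0.55) and -0.04 for RPLP0 (interval -0.58 to 0.49), and without ZnO 1 they were 0.18 and 0.15. The intervals of all 67 genes included 0.

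Genes with known roles outside the ribosome or in development kept to the same order of libraries at the low end, with ZnO 1 lowest. RPL5 and RPL11 encode proteins that, bound to a small ribosomal RNA, inhibit MDM2 and so stabilise p53 in human cells. RPL5 had 777, 1318 and 1357 FPKM in ZnO libraries, against 1307, 1120 and 1455 FPKM in control libraries, and RPL11 had 805, 1180 and 1209 FPKM in ZnO libraries, against 1156, 998 and 1320 FPKM in control libraries. Both overlapped between groups (adjusted p = 0.975 for each in limma). RPL38, whose loss in mouse gives homeotic changes of the vertebrae, had 504, 904 and 875 FPKM in ZnO libraries, against 881, 863 and 1108 FPKM in control libraries. RPL38 likewise overlapped (log2 fold change -0.36 ± 0.27 SE, -0.09 without ZnO 1, adjusted p = 0.962 in limma). RPS27A, which is made as a fusion with ubiquitin, had 1111 ± 289 FPKM in ZnO and 1236 ± 213 FPKM in control libraries (SD, n = 3 each).

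A list of 10 genes mutated in Diamond-Blackfan anaemia, a human failure of red cell production, which does not hold every gene of that disease, had 9 measured members, with the RPL26L1 row taken for RPL26 by its synonym. All 9 had lower means in ZnO embryos, with a median log2 fold change of -0.30, and 5 of 9 were lower without ZnO 1, with a median of -0.08; 0 passed. RPS7 was at 649 ± 179 FPKM in ZnO and 838 ± 84.2 FPKM in control libraries, RPS24 at 1135 ± 283 FPKM in ZnO and 1397 ± 206 FPKM in control libraries, RPL35A at 1030 ± 251 FPKM in ZnO and 1252 ± 210 FPKM in control libraries, and RPS10 at 1856 ± 458 FPKM in ZnO and 2037 ± 316 FPKM in control libraries (SD, n = 3 each). Because all 67 tested ribosomal protein genes had lower means, these directions set the listed anaemia genes apart from no other member. The other stalk gene, RPLP2, had 987 ± 240 FPKM in ZnO and 1067 ± 172 FPKM in control libraries.

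Once the shared level of each library was taken off, the members held nearly fixed proportions. The mean log2 level of the 67 genes in a library accounted for 92.2% of the squared deviations of its members from their 6-library means. The median SD over the 6 libraries was 0.31 on the log2 scale before and 0.077 after that mean was subtracted. RPL9, RPL13 and RPS3, all core proteins, were steadiest, with SDs of 0.027, 0.028 and 0.031, and RPS27L, RPL17 and RPS6 were the most variable, with SDs of 0.22, 0.17 and 0.16. As a description over 6 libraries, the Pearson correlation of a member with the mean of the others ran from 0.851 for RPS6 to 0.997, with a median of 0.980. ZnO 1, far below the other libraries, weighs heavily in the 92.2%, the 0.31 and these correlations, which were not computed without it. The median SD after subtraction was 0.070 without ZnO 1.

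Small differences between the members remained beside the shared level. Relative to the mean of the members, all 3 ZnO libraries lay above all 3 controls for 15 of 67 genes (22.4%) and below them for 13 (19.4%). Over all genes tested the same scale gave 19.7% above and 0.443% below, because the scale subtracts the mean of the members, which was low in ZnO 1, from every gene. For the members the differences average 0 by construction, so differences in both directions are built in. The shares of all genes are therefore no like background for the members. RPS2 relative to the mean was at 0.98, 0.90 and 1.03 log2 in ZnO libraries, against 0.84, 0.67 and 0.77 in control libraries, and RPLP0 at 0.32, 0.25 and 0.17 in ZnO libraries, against 0.03, 0.03 and 0.06 in control libraries. RPL15, RPS13, RPS20 and RPL24 also lay higher in every ZnO library on this scale. A gene counted as above has ZnO 2 and ZnO 3 above all controls by definition, so these values are no separate evidence.

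In the opposite direction, RPLP1 relative to the mean was at 1.01, 1.02 and 0.96 log2 in ZnO libraries, against 1.13, 1.18 and 1.12 in control libraries. The third stalk gene, RPLP2, overlapped between the groups on this scale, and differences among the stalk genes were not tested. RPL27A was at -0.10, -0.05 and -0.04 in ZnO libraries, against 0.10, 0.12 and 0.07 in control libraries. RPS28, RPS15, RPS7 and RPS15A also lay lower in every ZnO library. A limma fit to all genes on this scale, chosen after the data were seen, gave 0 members and 0 of all genes past the threshold. The lowest adjusted p of a member was 0.624, with differences of 0.21 ± 0.06 SE for RPLP0, 0.21 ± 0.07 SE for RPS2 and -0.15 ± 0.05 SE for RPLP1. Unadjusted p under 0.05 was reached by 7 higher and 6 lower members in limma, where 7.54% of all genes were higher and 0.128% lower by that measure. The differences of the members average 0 by construction, while the other genes are shifted upward. These shares are therefore no like background for the members, and no excess can be read from them.

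**Figure D4:**
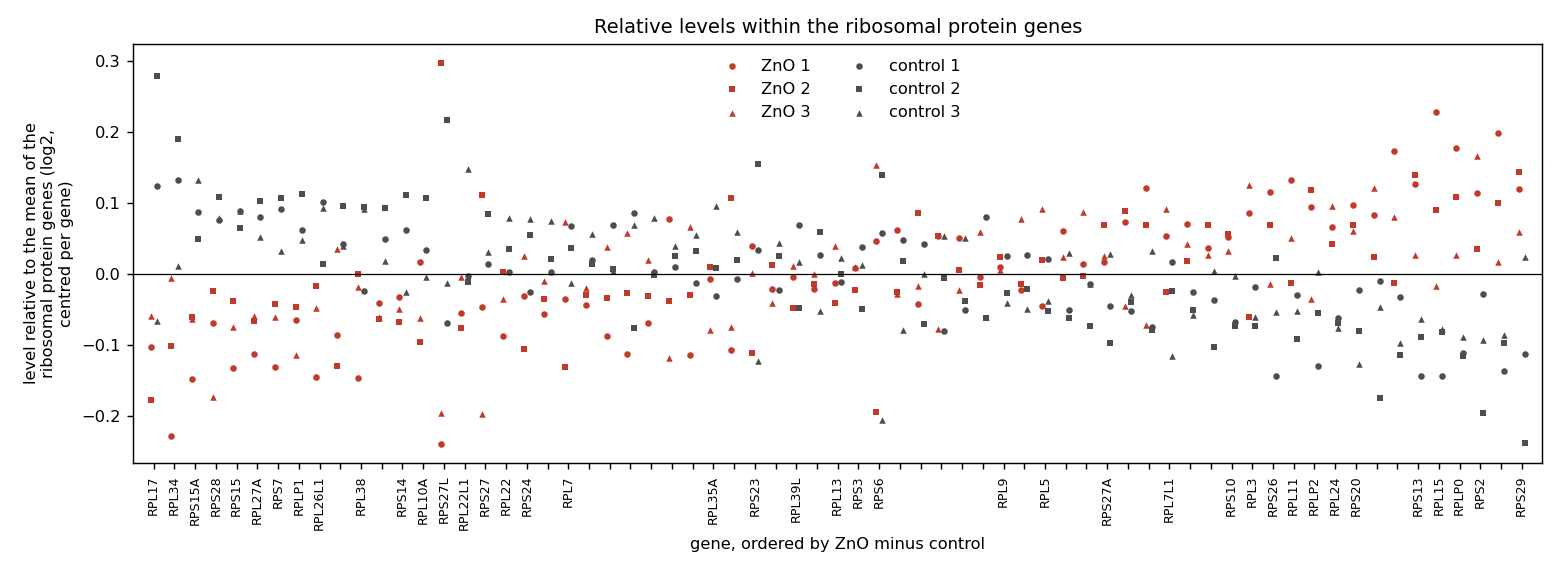
Log2 level of each of the 67 genes relative to the mean of all 67 in the same library, centred on the 6-library mean of the gene, for ZnO (red) and control libraries (grey), with circle, square and triangle for library 1, 2 and 3. Most points lie within 0.2 of 0. Towards the left and right ends the colours separate for some genes, narrowly in RPL34 and more widely in RPS2. In RPL17, at the far left, they overlap. Only genes named in the text are labelled.

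Other short genes differed between libraries in an order like that of the ribosomal protein genes. The tested members are short, from 313 to 1483 bp with a median of 594 bp, against 2652 bp over all genes tested, and 62 of 67 are under 1000 bp. In ZnO 1 other protein-coding genes also deviated by length. Their median log2 deviation from the 6-library mean was -0.49 for 106 genes under 500 bp, -0.26 for 762 genes from 500 to under 1000 bp, -0.12 for 2818 genes from 1000 to under 2000 bp and 0.12 for 684 genes of 8000 bp or more. In ZnO 2 and ZnO 3 the median of genes under 500 bp was 0.14 and 0.08, against 0.05, -0.03 and 0.24 in control 1, control 2 and control 3, so ZnO 1 was lowest, control 2 next and control 3 highest, as for the ribosomal protein genes. The members themselves showed little gradient in ZnO 1, at -0.58 under 500 bp, -0.60 from 500 to under 1000 bp and -0.49 for the 5 genes of 1000 bp or more.

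**Figure D5:**
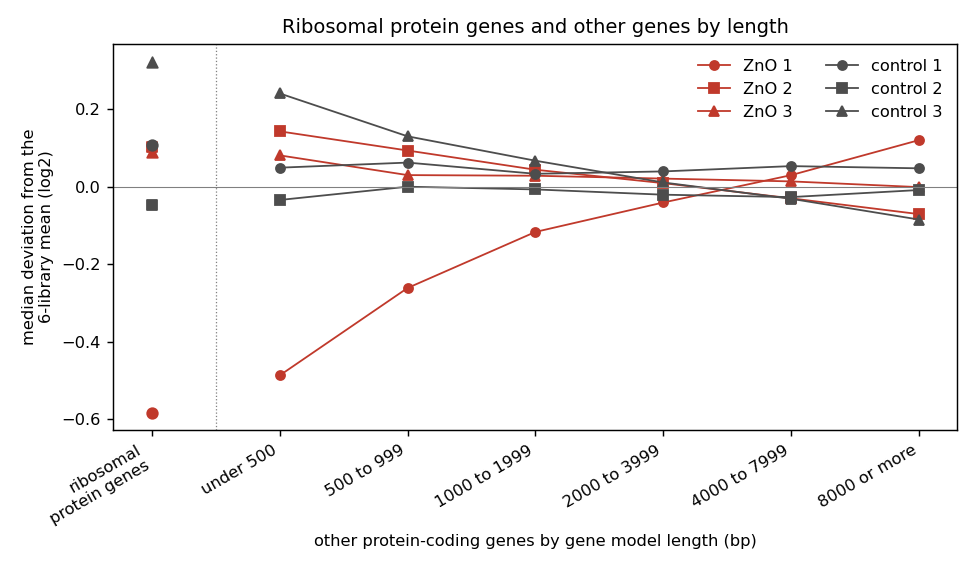
Median deviation of log2(FPKM + 1) from the 6-library mean for the 67 ribosomal protein genes (points at the left) and for other protein-coding genes grouped by gene model length (lines), with ZnO libraries in red and control libraries in grey. ZnO 1 is lowest for ribosomal protein genes and for other short genes, reaching -0.49 under 500 bp, and is highest, at 0.12, from 8000 bp.

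A read in ZnO 1 lay on average on a gene model of 3696 bp, against 3326 and 3382 bp in ZnO 2 and ZnO 3 and 3421, 3435 and 3276 bp in control 1, control 2 and control 3. These averages include the reads of the ribosomal protein genes. Other genes under 1000 bp took 6.51%, 7.84% and 7.66% of the reads of ZnO 1, ZnO 2 and ZnO 3. In control 1, control 2 and control 3 they took 7.84%, 8.15% and 8.19%. With a smooth curve of level against length taken out of each library, 60 of 67 members had lower means in ZnO embryos, against 51.9% of all genes, the median log2 fold change was -0.16, and 7 were higher, among them RPL15, RPLP0, RPS13, RPS2, RPS20 and RPS29. The curve may leave part of the length trend in the shortest genes. It moved the log2 fold change of RPL35A, the shortest member at 313 bp, from -0.30 to -0.23. Other protein-coding genes under 500 bp had a median log2 fold change of -0.19 before the curve was taken out. How far length contributes to the level of the ribosomal protein genes beyond that fit was not tested.

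Markers of yolk sac endoderm, a tissue that surrounds the embryo and supplies it with lipoproteins, ran partly opposite to the ribosomal protein level. All 5 of the 5 listed markers were measured and 0 were at 0. Their summed FPKM was 8138, 3496 and 5795 in ZnO 1, ZnO 2 and ZnO 3, against 6663, 9541 and 4045 in control 1, control 2 and control 3, so its range was 3496 to 8138 in ZnO and 4045 to 9541 in control libraries. ZnO 1 and control 2, the libraries lowest in ribosomal protein mRNA, had the highest sums. Control 3, the highest in ribosomal protein mRNA, had the second lowest. ZnO 2 had the lowest sum but not the highest ribosomal protein level. The median log2 deviation of the 5 markers was 0.56, -0.72 and 0.02 in ZnO libraries, against -0.19, 0.50 and -0.59 in control libraries. Means in ZnO embryos were higher for 2 and lower for 3 of the 5 markers (median log2 fold change -0.14, -0.42 without ZnO 1). All ZnO libraries lay above all controls for 1 and below them for 0, against 5.6% and 5.89% of all genes. APOA1, the most abundant marker of the list, had 6413, 2761 and 4610 FPKM in ZnO libraries, against 5144, 7017 and 3019 FPKM in control libraries. APOA1 thus made up most of the sum in each library. The part of these markers in the ribosomal protein result was not tested.

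Markers of the tissues of the embryo itself, set against the whole-embryo label, were measured in full for somite, heart, neural tube, neural crest, and notochord and endoderm, and for 6 of 7 markers of blood and endothelium, and 0 markers passed the threshold. All 4 somite markers had lower means in ZnO embryos (median log2 fold change -0.49, -0.50 without ZnO 1), and their summed FPKM was 66.2, 74.0 and 53.0 in ZnO libraries, against 82.5, 103 and 87.7 in control libraries, without overlap. Of 5 heart markers 4 had lower means (median -0.36, -0.46 without ZnO 1), with sums of 442, 382 and 373 FPKM in ZnO libraries, against 515, 575 and 440 FPKM in control libraries. Of 6 neural markers 5 had higher means (median 0.42, 0.37 without ZnO 1), with sums of 145, 164 and 140 FPKM in ZnO libraries, against 122, 117 and 157 FPKM in control libraries. All ZnO libraries lay below all controls for 2 somite, 2 heart and 1 neural marker, against 5.89% of all genes. They lay above all controls for 0 somite, 1 heart and 0 neural markers, against 5.6% of all genes. The somite, heart and neural medians, over lists of only 4, 5 and 6 markers, were farther from 0 than the -0.26 of the ribosomal protein genes. The other lists, of neural crest, of notochord and endoderm and of blood and endothelium, had medians of -0.08, 0.13 and -0.03. Of their 5, 5 and 6 tested markers, all ZnO libraries lay below all controls for 1, 0 and 0. They lay above all controls for 1, 1 and 0 of these markers. The part of these tissues in the ribosomal protein result was not tested.

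Ribosomal genes that the rule leaves out had their lowest value in ZnO 1 and their highest in control 3, as 63 of 67 members did. RPS4Y1, the row whose synonyms include RPS4X, had 1026, 1603 and 1555 FPKM in ZnO libraries, against 1568, 1440 and 1825 FPKM in control libraries. The search for genes with a log2 level most like the mean of the members covered 4386 genes outside the rule with at least 20 FPKM. Among the 10 most alike, RPS4Y1 came first (Pearson r = 1.00 over 6 libraries, a description). The others were HMGN5, RALA, SVBP, DYL1, ZNF593, RBX1, MRPS22, HN1 and TMEM70. ZnO 1, the lowest library in each of the 10, weighs heavily in these correlations. RPSAP58, whose synonyms include RPSA, was at 2259 ± 561 FPKM in ZnO and 2323 ± 307 FPKM in control libraries (SD, n = 3 each), and RACK1, a scaffold on the small subunit, at 1285 ± 276 FPKM in ZnO and 1361 ± 206 FPKM in control libraries.

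The genes that build the ribosome were divided almost evenly between higher and lower means. Of 97 ribosome biogenesis factors tested, 48 were lower and 49 higher in ZnO embryos (median log2 fold change 0.00), and 0 passed. Their median level in ZnO 1 was -0.28 relative to the 6-library mean, and in ZnO 2 and ZnO 3 it was 0.12 and 0.19, against 0.02, -0.08 and 0.07 in control 1, control 2 and control 3. Without ZnO 1, 17 of 97 were lower, with a median of 0.17, against 51.3% of all genes and 39 of 67 ribosomal protein genes; the difference between the lists was not tested. RPF2, which brings RPL5 and RPL11 into the large subunit in yeast, had 34.9 ± 7.57 FPKM in ZnO and 45.8 ± 4.68 FPKM in control libraries (lower in each ZnO library), and RRP12, an export factor, had 42.1 ± 2.53 FPKM in ZnO and 34.7 ± 1.71 FPKM in control libraries (higher in each ZnO library; SD, n = 3 each). Nucleolin NCL (488 ± 108 FPKM in ZnO and 437 ± 41.3 FPKM in control libraries) and nucleophosmin NPM1 (1336 ± 348 FPKM in ZnO and 1319 ± 214 FPKM in control libraries) overlapped between groups. Of the 97 factors, all ZnO libraries lay below all controls for 3 and above them for 4, against 5.89% and 5.6% of all genes.

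RNA polymerase I, which makes ribosomal RNA, and polymerase III had 17 of 30 tested genes lower and 13 higher (median log2 fold change -0.06), and 0 passed. POLR1B, POLR1C, POLR1D and TCOF1, genes of Treacher Collins syndrome, a human disorder of the cranial neural crest, were among the genes measured. POLR1B was at 5.83 ± 0.477 FPKM in ZnO and 4.41 ± 0.505 FPKM in control libraries (SD, n = 3 each; higher in each ZnO library, adjusted p = 0.869 in limma), and POLR1C at 65.6 ± 0.489 FPKM in ZnO and 72.2 ± 2.01 FPKM in control libraries (lower in each ZnO library, adjusted p = 0.974 in limma). POLR1D (76.9 ± 20.4 FPKM in ZnO and 87.6 ± 6.05 FPKM in control libraries), TCOF1 (40.1 ± 7.65 FPKM in ZnO and 36.7 ± 4.03 FPKM in control libraries), POLR1A and the polymerase I factor UBTF overlapped. Of the 30 genes, all ZnO libraries lay below all controls for 2 and above them for 1, against 5.89% and 5.6% of all genes.

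Among translation factors, 21 of 36 initiation factor genes were lower and 15 higher, and 6 of 12 elongation and termination factor genes were lower, with medians of -0.01 and 0.01 and 0 past the threshold. In ZnO 1 their medians were -0.37 and -0.38 relative to the 6-library mean. In the fit without ZnO 1, 4 of the 36 and 3 of the 12 were lower, against 51.3% of all genes. The median log2 fold changes were then 0.17 and 0.13. EIF4G1, the scaffold of cap-dependent initiation, had 115 ± 4.60 FPKM in ZnO and 89.9 ± 5.04 FPKM in control libraries (higher in each ZnO library, adjusted p = 0.863 in limma). Of the 36 initiation factor genes, all ZnO libraries lay above all controls for 3 and below them for 0, against 5.6% and 5.89% of all genes. EEF1A1 (4208 ± 1238 FPKM in ZnO and 3975 ± 590 FPKM in control libraries) and EEF2 (684 ± 113 FPKM in ZnO and 554 ± 123 FPKM in control libraries), whose mRNAs share the pyrimidine start in mammals, overlapped between groups. Of 22 genes with such mRNAs in mammals, ribosomal proteins left out, 16 were lower and 6 higher, with a median log2 fold change of -0.10 and 0 past the threshold; their median in ZnO 1 was -0.48. Without ZnO 1, 5 of those 22 were lower, with a median of 0.12.

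Mitochondrial ribosomal proteins, which belong to a separate ribosome and whose models have a median length of 949 bp, had 66 of 73 genes lower, against 56.1% of all genes (median log2 fold change -0.16, 0.05 without ZnO 1), and 0 passed. In 5 of the 73 all ZnO libraries lay below all controls, a share near the 5.89% of all genes. MRPS16 was at 25.8 ± 4.01 FPKM in ZnO and 32.6 ± 1.56 FPKM in control libraries (SD, n = 3 each; adjusted p = 0.913 in limma). Their median was -0.47 in ZnO 1 and 0.22 in control 3, the same lowest and highest libraries as for the cytosolic set. Of 31 regulators of growth and of ribosomal protein synthesis, 16 were lower and 15 higher, and 0 passed. RPTOR, a subunit of the mTOR complex, had 11.4 ± 0.293 FPKM in ZnO and 8.07 ± 1.10 FPKM in control libraries (higher in each ZnO library, adjusted p = 0.817 in limma). Of the 31 regulators, all ZnO libraries lay above all controls for 2 and below them for 0, against 5.6% and 5.89% of all genes. LARP1, which binds the pyrimidine start, had 59.5 ± 11.0 FPKM in ZnO and 47.0 ± 6.15 FPKM in control libraries, MYCN 86.0 ± 12.2 FPKM in ZnO and 68.6 ± 18.2 FPKM in control libraries, MYC 55.9 ± 1.31 FPKM in ZnO and 55.5 ± 8.95 FPKM in control libraries and the S6 kinase gene RPS6KB1 16.9 ± 2.02 FPKM in ZnO and 18.1 ± 1.87 FPKM in control libraries, all overlapping between groups. The 10 cytosolic aminoacyl-tRNA synthetase genes and 23 genes of nascent chain handling had 6 and 14 lower, and 0 passed. In the fit without ZnO 1, 3 of the 10 and 5 of the 23 were lower, with median log2 fold changes of 0.18 and 0.10.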

How the data were processed

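Total RNA of 6 whole-embryo samples was extracted with Trizol and sequenced from Illumina TruSeq libraries, per the labels' protocols. Bowtie2 2.2.3, TopHat2 2.0.12 and HTSeq 0.6.1 are named in the submitters' processing notes, which give only mm10, a mouse build, although the gene IDs are chicken; parameters and use of strand are not given in the sources used here. The deposited values were made by the authors and behave as FPKM; 19704 of 24098 gene IDs matched RefSeq (assembly GRCg7b, used for names and biotypes only). Whole reads and gene model lengths were recovered from the value steps (within 0.005 reads, all 13311 tested genes). Rows averaging 1 FPKM or more entered a two-sided limma fit (version 3.58.1, R 4.3.3, trended empirical Bayes) on log2(FPKM + 1), with Benjamini-Hochberg adjustment over all of them; the code was tested on simulated data. A fold change on this scale understates low genes. Recovered reads gave limma-voom as an alternative, with normalization by a trimmed mean of M values. The members and lists were chosen with earlier results of these data known. Genes were named by extremes of level, fold change, p and variability, by known roles, and up to 3 with the smallest p per list; members of the non-overlapping sets and the markers were named after their values were seen. Some genes that the rule names are not reported here.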

Additional observations from a re-analysis of the deposited data

How the results depend on the processing

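The counts of 0 members past the threshold held under every alternative run (pseudocounts of 0.1 and 5, 2 other filters, TPM, quantile normalization, medians set equal, limma-voom, a length curve, each library left out, and a replicate block). The median log2 fold change stayed negative, from -0.37 without ZnO 2 to -0.03 without ZnO 1. Genes past the threshold ranged from 0 to 4 and members with a lower mean from 39 to 67, with each library left out. Members with all ZnO below all control libraries ranged from 6 to 26 of 67 with each library left out, being 6 without ZnO 1, where 18.2% of all genes did so, 14 without ZnO 2 (9.41%) and 26 without control 2 (11.1%); this count was 10 with TPM (3.73%), 16 with quantile normalization (5.69%) and 3 with medians set equal (5.06%). The cause was not tested. Same-numbered libraries showed no common direction (correlations of -0.03, -0.37 and 0.41). With 3 libraries per group, such correlations cannot decide whether the numbers pair the libraries. The replicate block gave a lowest member adjusted p of 0.996 in limma and 758 genes at an unadjusted p under 0.05. Relative to the members' mean, a scale added after the data were seen, the lowest member adjusted p in limma ranged from 0.502 to 1.00 with each library left out. Reversed log2 fold changes were, with TPM, NPM1 0.056, RPL15 0.011, RPLP0 0.020, RPS2 0.021 and RPS29 0.026; with the length curve, NPM1 0.071, RPL15 0.045, RPLP0 0.039, RPS2 0.049 and RPS29 0.052; with quantile normalization, NPM1 0.17, RACK1 0.041, RPL11 0.071, RPL15 0.030, RPL3 0.071, RPLP0 0.14, RPS10 0.019, RPS2 0.16, RPS26 0.11, RPS27A 0.047, RPS29 0.077 and RPS6 0.018; with limma-voom, NPM1 0.011; and with medians set equal, NPM1 0.015. With each library left out, these log2 fold changes crossed 0, most often without ZnO 1: EEF1A1 -0.13 to 0.31, MYC -0.059 to 0.15, NCL -0.020 to 0.30, NPM1 -0.14 to 0.23, POLR1A -0.053 to 0.18, POLR1D -0.36 to 0.017, RACK1 -0.21 to 0.096, RPL11 -0.24 to 0.054, RPL15 -0.16 to 0.11, RPL3 -0.29 to 0.059, RPL5 -0.35 to 0.055, RPL7L1 -0.30 to 0.051, RPL9 -0.35 to 0.0051, RPLP0 -0.16 to 0.15, RPLP2 -0.28 to 0.078, RPS10 -0.28 to 0.068, RPS2 -0.18 to 0.18, RPS26 -0.26 to 0.062, RPS27A -0.31 to 0.061 and RPS29 -0.18 to 0.19. These lists of sign changes name only some of the genes. Of the 67 members, 6 were higher in ZnO embryos with TPM and 7 with the length curve. With quantile normalization 18 were higher, and without ZnO 1 it was 28.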
